A study of Rattus norvegicus with 6 samples.

Results

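Platelet-derived growth factors (PDGFs) and their receptors were followed in bulk RNA sequencing of fibrotic rat liver. The 7 genes were taken by their symbols from a table of 16209 rows: the ligand genes Pdgfa, Pdgfb, Pdgfc and Pdgfd, the receptor genes Pdgfra and Pdgfrb, and the receptor-like gene Pdgfrl. All 7 were in the table and passed the filter on low values, as did 14639 rows in all. The study compared livers of fibrotic rats given vehicle (3 libraries) with livers of fibrotic rats given ginkgetin, a biflavone found in ginkgo, at 10 mg/kg/day (3 libraries). No library from a rat without fibrosis was analysed here, so every value describes ginkgetin against vehicle on a fibrotic background. How fibrosis was induced, and the strain, sex and age of the rats, were not given in the sources used here. The columns of the vehicle libraries carry the letters TAA, which the labels do not explain, and every direction below rests on their assignment to vehicle.

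PDGFs are secreted dimers that drive the growth and migration of mesenchymal cells. The A, B and C chains bind the alpha receptor, and the B and D chains bind the beta receptor. Both receptors are tyrosine kinases that pair on binding their ligand and signal through phosphatidylinositol 3-kinase, phospholipase C gamma and the Ras pathway to MAP kinases. In injured liver, stellate cells that turn into myofibroblasts are known to gain the beta receptor and to proliferate in response to PDGF from platelets, macrophages, endothelium and bile duct cells. Portal fibroblasts, pericytes and smooth muscle cells carry these receptors too. Chains A and B are cut by furin-like proteases inside the cell, whereas chains C and D are released with a CUB domain that outside proteases must remove.

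Levels are normalized read counts. A fold change is the ginkgetin mean minus the vehicle mean of log2(value + 1), a scale that understates differences in genes with few reads. Libraries held 13372367 to 14933853 reads assigned to genes. Vehicle replicate 3 stood apart, with Alb, which encodes albumin, at 2.89% of its normalized reads against 6.56% to 12.1% in the other 5 libraries. It held the highest value of each of the 7 genes, and the results on these genes are also given without it. In limma, which fits all genes together, 2 of 14639 genes (0.0137%) passed a Benjamini-Hochberg adjusted p of 0.05, 1 of them lower with ginkgetin (0.00683%), and 2963 (20.2%) had an unadjusted p under 0.05. On whole reads 0 genes passed in edgeR, where 2915 (19.9%) reached an unadjusted p under 0.05, and DESeq2 called 1375 of 14300 (9.62%), of which 1099 were lower (7.69%). The labels call the samples replicates without saying that each came from its own animal, so p-values reflect only the spread among these 6 samples.

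All 7 PDGF genes had lower mean levels in the ginkgetin livers, by unequal amounts. Mean levels in vehicle were 6.36 times those in ginkgetin for Pdgfrb, 5.46 times for Pdgfd, 4.34 times for Pdgfb, 2.77 times for Pdgfa and 2.67 times for Pdgfra, but 1.30 times for Pdgfc. For Pdgfrl the ratio of means was 5.13, from few reads. In 5 of the 7 genes all 3 ginkgetin values lay below all 3 vehicle values, which was also so for 16.1% of all genes tested. Those 5 had an unadjusted limma p under 0.05, against 13.2% of all genes on the lower side. None of the 7 passed after adjustment over all genes: 0 were called in limma, with adjusted p from 0.0766 for Pdgfrb to 0.457 for Pdgfc, and 0 in edgeR. DESeq2 called 5, the same 5 genes, with adjusted p from 3.36e-05 for Pdgfrb to 0.0257 for Pdgfa. Pdgfrb ranked 88th of 14639 genes by p, Pdgfd 222nd, Pdgfra 297th, Pdgfa 930th and Pdgfb 1409th. All 7 had a log2 fold change below 0, at a median of -1.82, where the median of all genes tested was -0.02 and 51.4% were below 0. Without vehicle replicate 3 the median over the 7 was -1.29, and in 5 genes the groups again stood apart, against 19.3% of all genes. Vehicle replicate 1 is the lowest vehicle library in all 7, so leaving out replicate 3 cannot end such a separation.

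**Figure D1:**
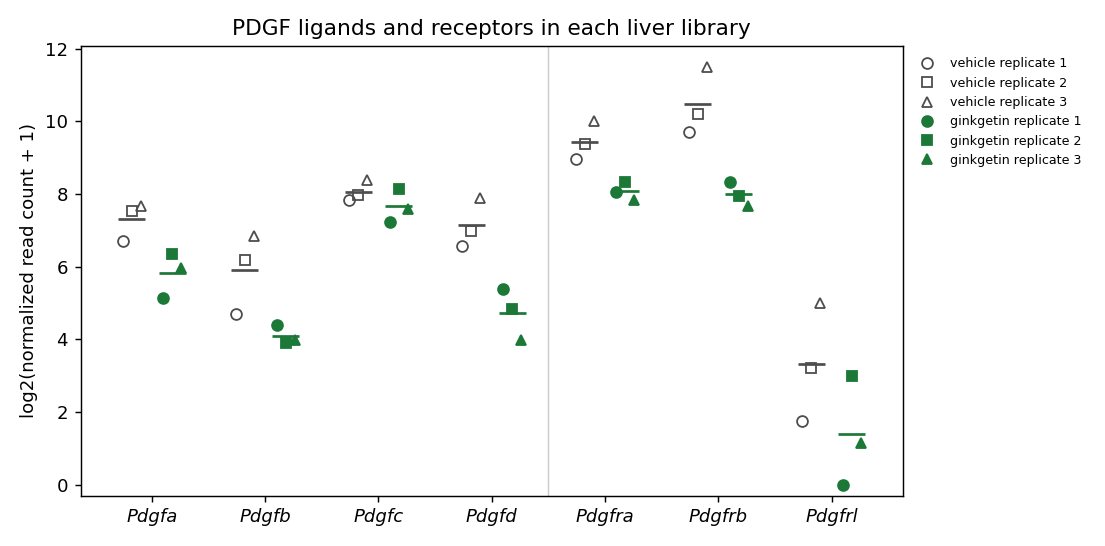
Levels of the 7 genes in each of the 6 libraries, as log2(normalized read count + 1), with ligands to the left of the line and receptors to the right. Open grey symbols are vehicle, filled green symbols ginkgetin, and bars the mean of 3 libraries. Groups stay apart in 5 genes and overlap in Pdgfc and Pdgfrl, and vehicle replicate 3 is the highest library in each.

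The beta receptor had the lowest log2 fold change of the 7 genes over all 6 libraries, though Pdgfd was lower without vehicle replicate 3 (-2.05 against -1.97) and without ginkgetin replicate 1 (-2.74 against -2.66). Without ginkgetin replicate 2, Pdgfrl was lower (-2.75 against -2.47). Pdgfrb had 843, 1178 and 2899.6 normalized reads across vehicle replicates 1 to 3, against 324, 246 and 203 across ginkgetin replicates 1 to 3. Groups did not overlap, and the lowest vehicle library was 2.60 times the highest ginkgetin library. Vehicle replicate 3 lay at 2.87 times the mean of the other vehicle libraries. The vehicle mean was 1641 ± 1103 (SD, n = 3), and the ginkgetin mean 258 ± 61.3 (SD, n = 3). The log2 fold change was -2.49 (SE 0.441, 95% interval -3.50 to -1.47, limma adjusted p = 0.0766). Without vehicle replicate 3 it was -1.97, and the gene then passed (limma adjusted p = 0.029). Without vehicle replicate 1 it was -2.86 and passed as well (adjusted p = 0.023, limma). It also passed in limma with equal library totals (-3.01), which move the median of all genes to -0.53, and did not pass with 1 of the other 4 libraries left out or in edgeR (adjusted p = 0.086).

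The alpha receptor was lower as well, by less. Pdgfra had 496, 659 and 1033 normalized reads per vehicle library, against 268, 323 and 229 per ginkgetin library, again without overlap. Here the lowest vehicle library stood at 1.54 times the highest ginkgetin library. The log2 fold change was -1.36 (SE 0.303, 95% interval -2.06 to -0.67, limma adjusted p = 0.0953), from means of 729 ± 275 (SD, n = 3) and 273 ± 47.2 (SD, n = 3). Leaving out vehicle replicate 3 gave -1.08, and leaving out vehicle replicate 1 gave -1.61, where it passed in limma (adjusted p = 0.0351).

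The difference between the receptors was computed within each library, which cancels the factor that scales a library. On the log2 scale Pdgfrb minus Pdgfra was 0.77, 0.84 and 1.49 across vehicle replicates 1 to 3, and 0.27, -0.39 and -0.17 across ginkgetin replicates 1 to 3. Gene lengths differ, so only the shift between groups can be read, and not the sign of a single value. Every ginkgetin library lay below every vehicle library, and the shift was -1.13 (SE 0.302). Its exact two-sided permutation p was 0.1, the smallest that 3 against 3 libraries can give, and 0.125 after Benjamini-Hochberg adjustment over 5 such differences. Without vehicle replicate 3 the shift was -0.90.

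Pdgfrl encodes a secreted or cell-associated protein with similarity to the ligand-binding part of PDGF receptors and no kinase. Few reads came from it: 2, 10 and 51 in the vehicle libraries and 0, 6 and 1 with ginkgetin. As normalized reads these were 2.37, 8.32 and 31.3 against 0, 6.94 and 1.24. Groups overlapped, and most reads came from vehicle replicate 3. For the library at 0, a floor of 3 reads equals 3.32 normalized reads, and the 95% counting interval reaches 4.08. Both cover counting error only. The log2 fold change was -1.95 (SE 1.07, 95% interval -4.40 to 0.51, limma adjusted p = 0.332), and -1.10 without vehicle replicate 3. With 5 added in place of 1 before taking logs it was -1.09, so a size cannot be given at this depth.

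**Figure D2:**
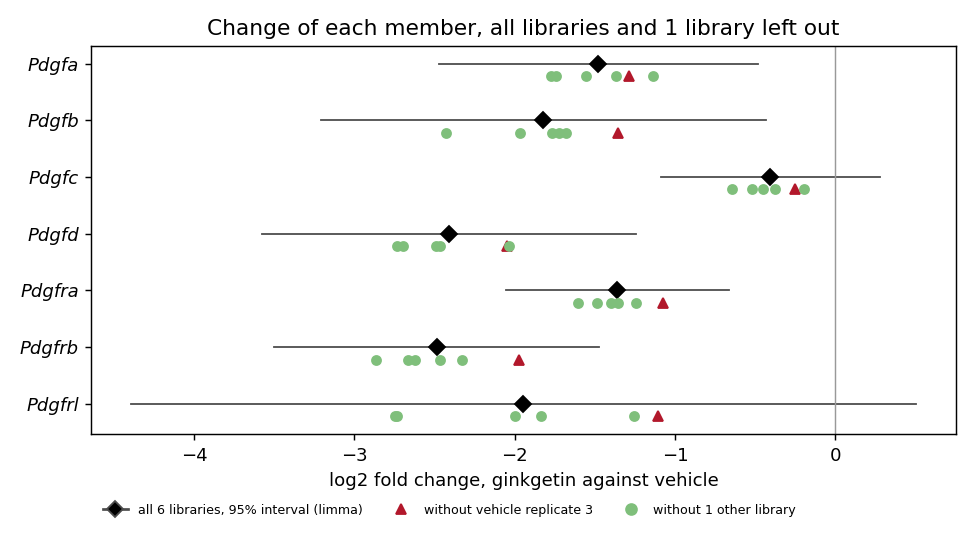
Difference of each gene on the log2 scale, ginkgetin against vehicle. Diamonds with lines are the estimate from all 6 libraries and its 95% interval (limma), red triangles the estimate without vehicle replicate 3, and green circles the estimates without 1 other library. All estimates are below 0, from -2.86 for Pdgfrb to -0.20 for Pdgfc, and the intervals of Pdgfc and Pdgfrl include 0.

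Among the classical ligands, Pdgfa, whose chain binds the alpha receptor only, had 103, 183 and 204 normalized reads per vehicle library, against 34.3, 81.0 and 61.9 per ginkgetin library. No values overlapped, although vehicle replicate 1 was only 1.27 times the highest ginkgetin library. Its log2 fold change was -1.48 (SE 0.432, 95% interval -2.47 to -0.48, limma adjusted p = 0.139), and -1.29 without vehicle replicate 3. Pdgfb, whose chain binds either receptor, had 24.9, 72.4 and 114 normalized reads per vehicle library, against 19.9, 13.9 and 14.8 per ginkgetin library. Those are few reads, 12 to 185 per library. The vehicle libraries ranged over 4.56 times, the ginkgetin libraries over 1.43 times. In vehicle replicate 1 the 95% counting interval, 15.4 to 38.1 normalized reads, overlapped that of ginkgetin replicate 1, 11.8 to 31.5. The log2 fold change of Pdgfb was -1.82 (SE 0.603, 95% interval -3.21 to -0.43, limma adjusted p = 0.169). Leaving out vehicle replicate 3 brought it to -1.36, and leaving out vehicle replicate 1 to -2.43, where it passed in limma (adjusted p = 0.0434).

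Whether Pdgfb and Pdgfa differed in how much lower they were could not be settled. The exact permutation test cannot give a p under 0.1 with 3 against 3 libraries. Pdgfb minus Pdgfa was -2.01, -1.33 and -0.84 on the log2 scale with vehicle and -0.76, -2.46 and -1.99 with ginkgetin. The groups overlapped, at a shift of -0.34 (SE 0.611, exact two-sided permutation p = 0.8, adjusted p = 0.8), and without ginkgetin replicate 2 the shift was 0.019.

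Between the ligands with a CUB domain the estimates lay far apart. The exact permutation test of that difference, given below, could not pass with so few libraries, whatever the values. Pdgfd, whose product activates the beta receptor, had 94.9, 126 and 234 normalized reads per vehicle library, against 40.9, 27.8 and 14.8 per ginkgetin library. The lowest vehicle library was 2.32 times the highest ginkgetin library. Its log2 fold change was -2.41 (SE 0.508, 95% interval -3.58 to -1.24, limma adjusted p = 0.0912), -2.05 without vehicle replicate 3, and -2.70 without vehicle replicate 1, where it passed in limma (adjusted p = 0.0423). Pdgfc, whose product activates the alpha receptor, had 228, 251 and 331 normalized reads per vehicle library, against 150.4, 280.0 and 193 per ginkgetin library. Ginkgetin replicate 2 lay above vehicle replicates 1 and 2, so the groups overlapped. The log2 fold change of Pdgfc was -0.41 (SE 0.297, limma adjusted p = 0.457), and its 95% interval of -1.09 to 0.28 leaves room for a change in either direction. It was -0.25 without vehicle replicate 3.

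Pdgfd minus Pdgfc was -1.25, -0.98 and -0.50 on the log2 scale in the vehicle libraries and -1.85, -3.29 and -3.61 with ginkgetin. Groups did not overlap, and the shift was -2.01 (SE 0.585, exact two-sided permutation p = 0.1, the smallest possible, adjusted p = 0.125). Without vehicle replicate 3 it was -1.80. Set side by side, the genes of the beta receptor and the ligand chains that bind it had mean ratios of vehicle to ginkgetin of 4.34 to 6.36. Those of the alpha receptor and of the A and C chains had ratios of 1.30 to 2.77. The B chain, counted here with the beta receptor, binds the alpha receptor too. Without vehicle replicate 3 the gap was narrower: Pdgfrb was at 3.92 and Pdgfd at 3.97, against 2.42 for Pdgfa, 2.11 for Pdgfra and 1.15 for Pdgfc, and on the log2 scale Pdgfb (-1.36) lay close to Pdgfa (-1.29). That grouping was made after the values were seen and was not tested.

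The 7 genes did not share 1 order of libraries. In vehicle all 7 were highest in replicate 3 and lowest in replicate 1. With ginkgetin, Pdgfb, Pdgfd and Pdgfrb were highest in replicate 1, and Pdgfa, Pdgfc, Pdgfra and Pdgfrl in replicate 2. Across the 6 libraries, Pearson's r of log2 levels was 0.98 between Pdgfrb and Pdgfra and 0.98 between Pdgfrb and Pdgfd. It was 0.63 between Pdgfrb and Pdgfc and 0.57 between Pdgfd and Pdgfc. The libraries form the groups compared, and vehicle replicate 3 is the highest point of each gene, so these describe the 6 points only.

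Promoter sequences were looked up for the 7 genes, all of which had lower means with ginkgetin. RefSeq's GRCr8 table gave the 250 bases before the start of 5 of the 7 genes, with no entry for Pdgfrb and Pdgfrl. The windows are GRCr8 positions, whereas the submitters' processing notes name mRatBN7.2. Shown are those of the alpha receptor and the classical ligands, 5′ to 3′ along the gene, without bases inside the annotated gene. Capitals mark a GC box in the ligand genes and a CCAAT box in Pdgfra, each found on the other strand.
Pdgfra chr14:33408605-33408766 (minus strand): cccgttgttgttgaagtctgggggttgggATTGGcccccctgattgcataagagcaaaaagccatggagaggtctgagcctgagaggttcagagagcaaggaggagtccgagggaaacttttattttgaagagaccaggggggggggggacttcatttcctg
Pdgfa chr12:20759116-20759365 (plus strand): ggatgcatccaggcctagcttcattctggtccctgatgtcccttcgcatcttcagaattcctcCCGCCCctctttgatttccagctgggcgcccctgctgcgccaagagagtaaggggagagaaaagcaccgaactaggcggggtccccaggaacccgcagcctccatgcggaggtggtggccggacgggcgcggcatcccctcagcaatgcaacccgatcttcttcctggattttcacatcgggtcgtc
Pdgfb chr7:113438344-113438593 (minus strand): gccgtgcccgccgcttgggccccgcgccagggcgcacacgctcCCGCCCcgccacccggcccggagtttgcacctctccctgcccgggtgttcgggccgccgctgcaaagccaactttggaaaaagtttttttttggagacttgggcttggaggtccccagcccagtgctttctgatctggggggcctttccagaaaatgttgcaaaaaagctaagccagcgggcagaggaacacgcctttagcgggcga

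The motifs, searched on both strands, had the letters GGGCGG for the GC box and CCAAT for the box of that name. For the TATA box they were TATAAA, for the AP-1 site TGANTCA and for the ETS site GGAAGT. No match overlapped another. A GC box was found 187 bases before the start of Pdgfa, 207 before Pdgfb and 114 before Pdgfd, and 30.5% of 33469 rat promoter windows of the same length hold one. Pdgfra had a CCAAT box at 221 bases, a motif in 34.0% of windows. An AP-1 site lay 35 bases before its start, in the part that overlaps the annotated gene and is not printed, and 6.34% of windows hold one. An ETS site lay 11 bases before the start of Pdgfd, and 19.2% of windows hold one. For Pdgfd only the first 77 of the 250 bases lay outside the annotated gene. Its GC box and its ETS site both lay in the part that overlaps the gene. TATAAA, in 12.9% of windows, was in none of the 5, and the window of Pdgfc held no match to any of these letters. That whole window lay inside the annotated gene Pdgfc. GC content was 63.6% for Pdgfb, 61.6% for Pdgfd, 60.8% for Pdgfa, 56.0% for Pdgfc and 47.2% for Pdgfra, against a median of 51.2% over all windows. A match describes letters in these windows and not binding of a factor.

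Of 7 proteases that process PDGF chains, 5 had lower means, with a list median of -0.70 on the log2 scale (-0.17 without vehicle replicate 3). In limma 0 passed and 2 had an unadjusted p under 0.05, and DESeq2 called 2. For this and the following lists the shares over all genes are 20.2% at that unadjusted p and 9.62% in DESeq2. St14, which encodes matriptase, a protease able to activate the D chain, had 203, 251 and 822 normalized reads per vehicle library, against 58.6, 52.1 and 45.8 per ginkgetin library (log2 fold change -2.72, limma adjusted p = 0.0804). Without vehicle replicate 3 it passed in limma (-2.10, adjusted p = 0.0368), as it did without vehicle replicate 1 (adjusted p = 0.0274). Plat, which encodes tissue plasminogen activator, known to release active PDGF-C, had 191, 374 and 1444 against 102, 82.1 and 53.2 (-2.60, limma adjusted p = 0.113, and -1.79 without vehicle replicate 3). Vehicle and ginkgetin values stood apart in both genes. Furin, the convertase of the A and B chains, pointed the other way, with 3064, 2661 and 1714 normalized reads against 3250.4, 4665 and 4096 (0.72, limma adjusted p = 0.293, and 0.47 without vehicle replicate 3). Pcsk5, a related convertase, overlapped between groups (-0.70, limma adjusted p = 0.317, and -0.46 without that library).

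Co-receptors and ligand-binding proteins had lower means in 5 of 6 genes, at a median of -1.28 (-0.75 without vehicle replicate 3). In limma 0 passed and 3 had an unadjusted p under 0.05, and DESeq2 called 2. Nrp1, which encodes neuropilin 1, a co-receptor that also binds PDGF, had 386, 469 and 1094 normalized reads per vehicle library, against 202, 229 and 159.6 per ginkgetin library (log2 fold change -1.58, limma adjusted p = 0.109, and -1.12 without vehicle replicate 3). Its vehicle and ginkgetin values did not overlap. Sparc, a matrix protein that binds the B chain, stood at -2.17 (limma adjusted p = 0.163), and at -1.29 without vehicle replicate 3. Nrp2 lay at -1.06 (limma adjusted p = 0.232), and at -0.57 without that library. Cspg4, the pericyte proteoglycan NG2, lay at -1.51 (limma adjusted p = 0.276), and at -0.93 without it.

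The intracellular relay had no common direction. Of 31 genes for adaptors, kinases and phosphatases that carry the receptor signal, 15 had lower and 16 higher means, at a median of 0.08. In limma 0 passed and 4 had an unadjusted p under 0.05, and DESeq2 called 0. The smallest p belonged to Akt2, a kinase downstream of phosphatidylinositol 3-kinase, with 338, 421 and 393 normalized reads per vehicle library, against 502, 809.9 and 547 per ginkgetin library (0.66, limma adjusted p = 0.196). Its groups did not overlap. The Src family kinases Src (-1.36, and -0.82 without vehicle replicate 3) and Fyn (-1.07, and -0.67 without it) and the adaptor Nck2 (-1.25) were on the lower side, with limma adjusted p from 0.201 to 0.231. With library totals made equal, which moves the median of all genes to -0.53, the median of this list was -0.44.

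Genes that dampen the receptors were mixed too, with 7 of 12 lower, a median of -0.17. In limma 0 passed and 1 had an unadjusted p under 0.05, and DESeq2 called 1. The median was 0.07 with quantile scaling and 0.17 without ginkgetin replicate 3. Spry2, a feedback inhibitor of receptor tyrosine kinase signalling that such signalling induces, had 146, 169 and 185 normalized reads per vehicle library, against 71.9, 33.6 and 49.5 per ginkgetin library. The groups stood apart, and vehicle replicate 3 was close to the other vehicle libraries (log2 fold change -1.73, limma adjusted p = 0.091, and -1.65 without that library). Errfi1, listed here though named for feedback inhibition of ERBB receptors, was higher in each ginkgetin library than in any vehicle library, but narrowly (1.72, limma adjusted p = 0.263). It had 18402, 9340 and 2194 normalized reads per vehicle library, against 18762, 30854 and 23295 per ginkgetin library. Errfi1 lay at 0.86 without vehicle replicate 3. The ubiquitin ligase gene Cbl (0.79) and the phosphatase gene Ptpn2 (0.26) had limma adjusted p of 0.449 and 0.524, and Ptpn2 was at -0.26 with equal library totals. Cbl was at 0.35 without vehicle replicate 1.

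Genes known to be induced by PDGF had lower means in 13 of 17 cases, at a median of -0.62. Leaving out ginkgetin replicate 2 moved the median to -0.99, leaving out ginkgetin replicate 3 to -0.40, and leaving out vehicle replicate 3 to -0.57. In limma 0 passed and 4 had an unadjusted p under 0.05, and DESeq2 called 2. Plaur, the urokinase receptor gene, had 51.0, 64.9 and 272 normalized reads per vehicle library, against 26.5, 30.1 and 17.3 per ginkgetin library (log2 fold change -1.97, limma adjusted p = 0.168, and -1.23 without vehicle replicate 3). Egr2, an immediate early transcription factor gene, lay at -1.82 (-1.15 without that library), Ccl2, a monocyte chemokine gene, at -2.19 (-1.34) and Has2, a hyaluronan synthase gene, at -2.46 (-1.63), with limma adjusted p from 0.199 to 0.208. Has2 rested on few reads, at 9.49, 2.50 and 33.1 normalized reads against 0, 1.16 and 2.47.

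Relatives of the PDGF receptors and their ligands were read as well. For the other class III receptor kinases and their ligands, 7 of 7 had lower means at a median of -0.48. Leaving out vehicle replicate 1 moved that median to -1.04 and leaving out ginkgetin replicate 1 to -0.80, and it was -0.75 in both edgeR and DESeq2. Other settings moved it towards 0. The median was -0.35 without vehicle replicate 3, where 6 of 7 were lower, -0.33 without ginkgetin replicate 3 and -0.32 with quantile scaling. In limma 0 passed and 1 had an unadjusted p under 0.05, and DESeq2 called 1. Kitlg, the ligand of the receptor Kit, had 161, 176 and 319.8 normalized reads per vehicle library, against 106, 70.6 and 27.2 per ginkgetin library, without overlap (-1.81, limma adjusted p = 0.138, and -1.50 without vehicle replicate 3). The macrophage receptor gene Csf1r stood at -0.96 (limma adjusted p = 0.327) and at -0.32 without vehicle replicate 3, Csf1 at -0.48 (-0.32 without ginkgetin replicate 3) and Flt3lg at -0.94 (-0.34 without ginkgetin replicate 2). In the VEGF family, related in structure to the PDGFs, 6 of 8 had lower means at a median of -0.33. Again 0 passed in limma, where 4 had an unadjusted p under 0.05, and DESeq2 called 1. Vegfd, a lymphatic growth factor gene, had 130.5, 225 and 586 normalized reads per vehicle library, against 53.1, 13.9 and 24.7 per ginkgetin library, a difference of -3.24 (limma adjusted p = 0.0907, and -2.65 without vehicle replicate 3). Kdr, the main VEGF receptor gene of endothelium, pointed upwards (0.75, limma adjusted p = 0.230), Flt4 lay at -0.74 (limma adjusted p = 0.233) and Pgf at -2.53 (limma adjusted p = 0.246, and -1.55 without vehicle replicate 3).

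**Figure D3:**
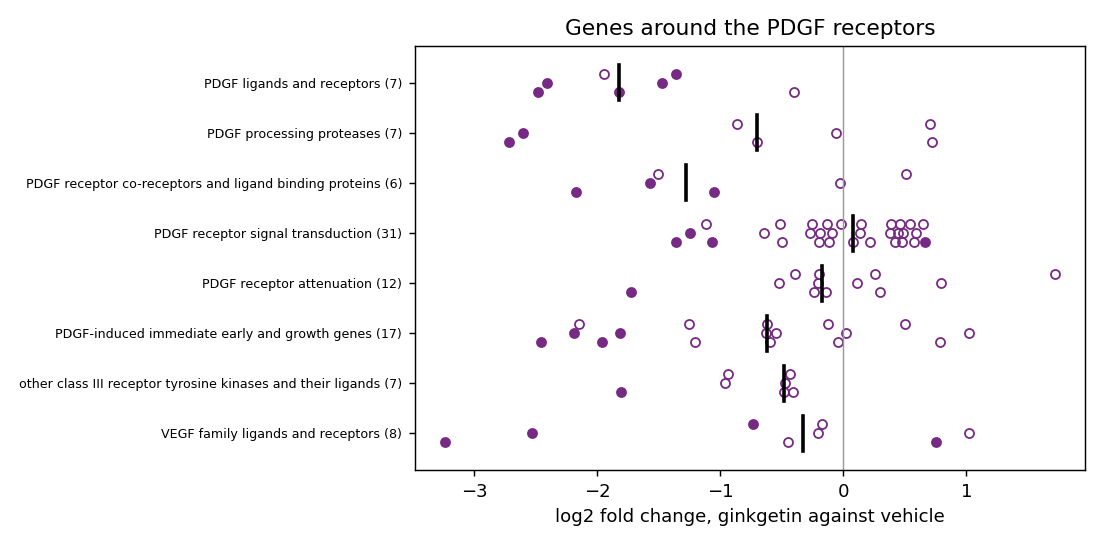
Log2 fold changes, ginkgetin against vehicle, of the 7 PDGF genes and of the 7 lists of genes around them, with the number of genes tested in brackets. Each circle is a gene, filled where the unadjusted limma p is under 0.05, and black bars are medians. The medians are -1.82 for the PDGF genes, -1.28 for co-receptors and 0.08 for signal transduction.

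Bulk liver RNA cannot tell fewer cells of a type from less RNA per cell, so marker genes of the cells that make or receive PDGF were read beside the 7 genes. Stellate cell markers did not share the receptors' direction: 9 of 13 had higher means, with a list median of 0.48 (0.81 without vehicle replicate 3). Their summed level was 3404 to 8887 normalized reads with vehicle and 5848 to 8706 with ginkgetin. In limma 0 of the 13 passed and 5 had an unadjusted p under 0.05, 3 of them higher. Among them Ecm1, a secreted matrix protein gene of quiescent stellate cells, stood at 2.17 (limma adjusted p = 0.0688), whereas Cygb, a stellate cell globin gene, stood at -3.50 (limma adjusted p = 0.07). Named after their values were seen, Lrat, the retinol-storing enzyme gene, lay at 0.92 and Des, the desmin gene, at -2.29, and Ngfr was the only stellate marker listed at 0 in any library, in vehicle replicate 1.

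Relative to the mean log2 level of these 13 markers, Pdgfrb was 3.21, 3.69 and 3.84 across vehicle replicates 1 to 3, and 1.03, 0.49 and 1.05 across ginkgetin replicates 1 to 3. Vehicle replicate 3 no longer stood apart on this scale. The shift was -2.72 (SE 0.264, exact two-sided permutation p = 0.1, the smallest possible, adjusted p = 0.125), and -2.59 without vehicle replicate 3. Pdgfra relative to the same markers was 2.45, 2.85 and 2.35 in the vehicle libraries, against 0.76, 0.87 and 1.23 after ginkgetin. Its shift was -1.59 (SE 0.208, exact two-sided permutation p = 0.1, adjusted p = 0.125), and -1.69 without vehicle replicate 3. For both receptors the groups did not overlap. The shift against stellate markers was larger than the fold change itself, which follows by arithmetic from the higher mean of the markers with ginkgetin. These markers pointed both ways, so their mean does not measure the number of stellate cells. Whether the receptors changed per cell was not tested.

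**Figure D4:**
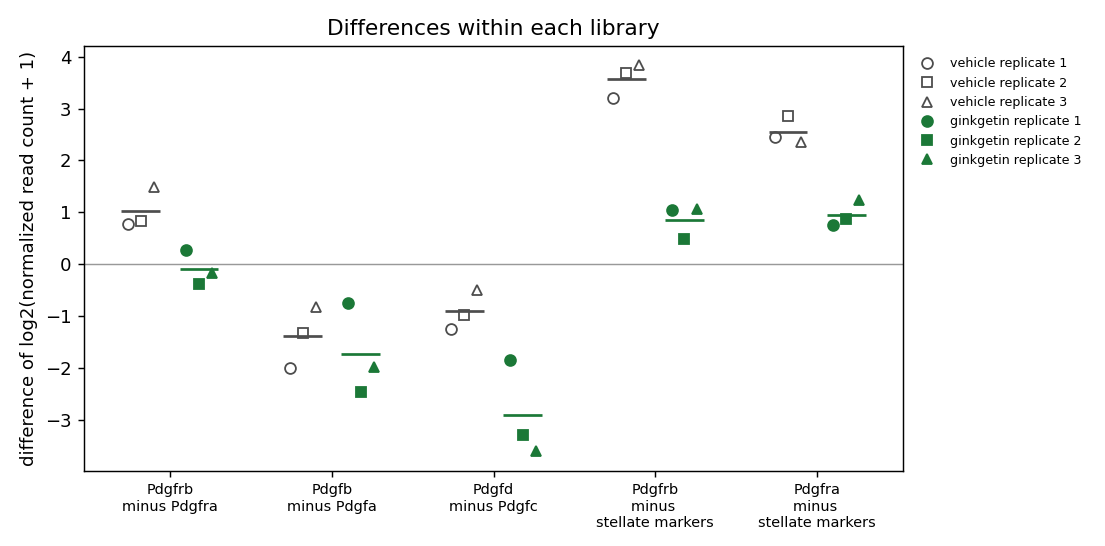
Differences of log2(normalized read count + 1) within each library, between receptors, between ligands, and between each receptor and the mean of 13 stellate cell markers. Open grey symbols are vehicle, filled green symbols ginkgetin, bars the mean of 3 libraries. Vehicle and ginkgetin stand apart in 4 of the 5 differences and overlap for Pdgfb minus Pdgfa.

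Most matrix genes of myofibroblasts shared the receptors' direction. Of 10 tested, 9 had lower means at a median of -2.40 (7 of 10 and -1.32 without vehicle replicate 3). Sums were 27169.7, 27623 and 137706 normalized reads across vehicle replicates 1 to 3, against 17865 to 36267 with ginkgetin. Only the sum of vehicle replicate 3 lay outside the ginkgetin range. Fn1, the 1 gene with a higher mean, weighed heavily in these sums. It had 16535, 14694 and 9530 normalized reads across vehicle replicates 1 to 3, against 12923, 30703 and 21008 across ginkgetin replicates 1 to 3. In 6 of the 10 genes all ginkgetin values lay below all vehicle values, as in 16.1% of all genes tested. Loxl1 (-4.45) and Col1a1 (-4.14, and -2.78 without vehicle replicate 3) had the smallest p. Postn was listed at 0 in 2 libraries. Their part in the result was not tested. Portal fibroblast and mesothelial markers were lower in 8 of 10, at a median of -1.53 (-0.91 without vehicle replicate 3), with summed levels of 6061 to 7148 against 5967 to 7879. Dpt, 1 of the 2 genes with higher means, weighed heavily in these sums. It had 4145, 2826 and 3340 normalized reads across vehicle replicates 1 to 3, against 4664, 4165 and 6546 across ginkgetin replicates 1 to 3. Msln, the mesothelin gene, stood at -5.42 (limma adjusted p = 0.0688) and Entpd2, an ectonucleotidase gene of portal fibroblasts, at -1.75 (limma adjusted p = 0.106). Vascular smooth muscle and pericyte markers had no common direction (3 of 7 lower, median 0.05, and 0.37 without vehicle replicate 3), at sums of 778 to 2154 against 986 to 1224, with Myh11 at 1.09 and Kcnj8 at -0.60 (2.07 and -0.067 without vehicle replicate 3). The smooth muscle actin gene Acta2 lay at -0.35, at 0.83 without vehicle replicate 3 and at 0.09 without ginkgetin replicate 3.

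Markers of cells that supply the ligands varied. Endothelial markers, from cells that make Pdgfb, were lower in 5 of 10 (median -0.05, and 0.13 without vehicle replicate 3), with sums of 4989 to 8113 against 4201 to 6008, while the endothelial gene Vwf lay at -2.08 (limma adjusted p = 0.108) and Clec4g at 1.96 (limma adjusted p = 0.169). Platelet markers were lower in 4 of 9 (median 0.13), at sums of 467 to 1489 against 583 to 956, with Itga2b at 1.26 and Pf4 at -2.41 (-1.34 without vehicle replicate 3). Among platelet markers Ppbp was listed at 0 in 3 of 6 libraries and Tubb1 in 2. Macrophage markers were lower in 8 of 12 (median -1.10, and -0.50 without vehicle replicate 3), at sums of 6663 to 73884 against 4367 to 9649.6, with Trem2, listed at 0 in 2 ginkgetin libraries, at -7.20 (-5.69 without vehicle replicate 3) and Cd9 at -3.19. Of the 4 macrophage markers with higher means, Marco (2.63), Timd4 (2.09) and Clec4f (1.97) are genes of resident Kupffer cells (limma adjusted p of 0.169, 0.156 and 0.191). They were picked after their values were seen. The other marker with a higher mean, Cd163, stood at 0.42 (limma adjusted p = 0.788). The 8 of 12 that went the other way include Adgre1 at -0.95 (limma adjusted p = 0.298). The groups overlapped in Marco and Clec4f. Timd4 rested on few reads, at 1.19, 0.83 and 3.07 normalized reads per vehicle library, against 7.74, 16.2 and 7.42 per ginkgetin library. Cholangiocyte markers were lower in 8 of 8 (median -2.92), at sums of 1498 to 3182 against 329 to 616, with Sctr at -3.21 and Cftr at -3.45. Proliferation genes were lower in 8 of 8 (median -2.48), at sums of 747 to 3636 against 422 to 753, with Mki67 at -2.45 and Ccna2 at -2.75. Hepatocyte markers were higher in 11 of 11 (median 1.20, and 0.51 without vehicle replicate 3), at sums of 289800.1 to 1820887 against 1392713 to 2298565, with Apoa2 at 1.86 and Otc at 1.71 (1.33 and 1.12 without vehicle replicate 3). In these marker lists 0 genes passed in limma over all genes. At an unadjusted p under 0.05, which 20.2% of all genes reached, there were 6 of 10 matrix genes, 4 of 10 portal fibroblast and mesothelial, 8 of 8 cholangiocyte and 7 of 8 proliferation genes, all on the lower side. Endothelial genes were split between 4 lower and 2 higher, macrophage genes between 4 lower and 3 higher, and platelet genes between 1 lower and 1 higher. Of the hepatocyte genes 2 were higher, and 0 smooth muscle genes reached that p. DESeq2, which called 9.62% of all genes, called 7 cholangiocyte, 6 proliferation, 4 portal fibroblast and mesothelial, 4 stellate, 2 matrix, 2 macrophage, 2 platelet, 1 endothelial, 1 hepatocyte and 0 smooth muscle genes. The part of any cell type in the PDGF values was not tested.

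The genes whose pattern was most like that of Pdgfrb, by Pearson's r of log2 levels over the 6 libraries among 7015 named genes above the median level, were Cygb (r = 0.997), Inf2 (0.997), Rbm22 (0.997), Ldhb (0.997) and Loxl1 (0.996). Their log2 fold changes differ, from -4.45 for Loxl1, a crosslinking enzyme gene, to -0.32 for Rbm22, a splicing factor gene. For Pdgfra they were Nid2 (0.998), Trip6 (0.997), Itpa (0.995), Gja1 (0.995) and Rtn4 (0.993), at log2 fold changes of -1.78, -1.29, -0.36, -1.39 and -1.75. Nid2 encodes a basement membrane protein and Gja1 the gap junction protein connexin 43. The 6 points form the groups compared and share vehicle replicate 3, so the names describe likeness in these libraries only.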

How the data were processed

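RNA was measured in 6 rat liver samples, and 1 table of genes by libraries was used. Per the labels, total RNA was made into libraries using a SMARTER mRNA kit. The submitters' processing notes name the build mRatBN7.2. Aligner, counter, annotation and strandedness were not given in the sources used here. Reads of overlapping genes therefore cannot be told apart. The deposited values are a signal, normalized read counts made by the authors, with a normalization that the table does not name. In each library 99.67% of values, divided by the value of 1 read, came out whole within 0.02, which gave back the reads (13372367 to 14933853 per library). Columns named for ginkgetin were matched to samples by name and number. Those with the letters TAA were taken as vehicle replicates 1 to 3, the only group left.

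All genes were fitted with limma 3.58.1 (R 4.3.3), using trend and robust moderation. It used log2(value + 1) of genes that reached 1 in at least 3 libraries, with Benjamini-Hochberg adjustment over 14639 genes at 0.05. On whole reads, edgeR 4.0.16 and DESeq2 1.42.0 were alternatives. For differences within libraries an exact two-sided permutation test was used. The procedure was tested on simulated data. The 7 members, 7 pathway lists and 10 marker lists were chosen with earlier results of these data known. Up to 4 genes per pathway list and 2 per marker list with the smallest p are named, and 5 genes most like each receptor. Of the 7 symbols, 7 were found in the RefSeq gene table of GRCr8. Dates stand in place of 23 row names, and none of these is named.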

Additional observations from a re-analysis of the deposited data

How the results depend on the processing

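The 7 PDGF genes kept a log2 fold change below 0 in every alternative in which they were tested. Of the 7, limma passed 1 with equal library totals and DESeq2 passed 5 (where 7.69% of all genes were called lower), and 0 to 4 passed with 1 library left out: 4 without vehicle replicate 1, 1 without vehicle replicate 3 and 0 otherwise. Over all genes, 2 passed, against 5 with a pseudocount of 5, 1 with quantile scaling, 94 with equal library totals, 0 in edgeR (2915 at an unadjusted p under 0.05), 1375 in DESeq2 and 0 to 696 with 1 library left out (84 without vehicle replicate 3). DESeq2 passed 2 processing proteases, 2 co-receptors, 0 signal transduction genes, 1 attenuation gene, 2 induced genes, 1 relative among class III receptors and 1 in the VEGF family, where limma passed 0. With 1 library left out these counts were 0 to 2 for processing proteases, 0 to 1 for co-receptors, 0 to 1 for the VEGF family and 0 for the rest. The cause of these differences was not tested. Pdgfb minus Pdgfa ran from -0.83 to 0.019 with 1 library left out. Ptpn2 turned to -0.26 with equal library totals, Alb to -0.30 with quantile scaling, and Acta2 ranged from -1.19 to 0.83 with 1 library left out, at 0.09 without ginkgetin replicate 3. Same-numbered libraries did not deviate together (r = -0.16, 0.03 and -0.21). These values gave no sign of pairing by number, which 3 libraries per group cannot exclude. With the replicate number as a block, limma passed 0 genes over all (2382 at an unadjusted p under 0.05) and 0 of the 7, with an adjusted p of 0.212 for Pdgfrb, and the within-library differences had an exact p of at least 0.25, the smallest possible. Whether groups stay apart without vehicle replicate 3 was added after seeing the data. Depth limits Pdgfrl, at 0 to 51 reads per library, and Pdgfb, at 12 to 185.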
